A study of Mus musculus with 16 samples.

Results

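Microglia isolated from the olfactory bulb of WT and APP-NL-G-F knock-in (KI) mice were compared in the libraries that carry the letter m, 4 from each genotype and 8 of the 16 libraries of the series. All animals were 2 months old. WT mice were C57BL/6J animals bought from a vendor. KI mice carried the Apptm3.1Tcs allele on both copies of App, a humanised version with the mutations known as Swedish (NL), Iberian (F) and Arctic (G), and their line was kept on the C57BL/6J background. Since the WT mice were not described as littermates of the KI mice, genotype and the origin of the line cannot be told apart in any comparison below. The cells were collected with magnetic CD11b beads, and their total RNA was sequenced after depletion of ribosomal RNA.

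Microglia are the resident macrophages of the brain. They survey the tissue with motile processes, clear debris and parts of axons and synapses, and leave their surveying state when amyloid plaques form. The study concerns noradrenergic axons that the locus coeruleus sends to the bulb, and the comparison asks which microglial transcripts differ there between the genotypes. CD11b is also carried by other myeloid cells, and dissociation of tissue itself can switch on early response genes.

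The libraries held between 9255402 and 18117286 counts. Of 57010 genes in the table, 18351 reached 5 counts in 4 or more of these libraries and were tested. Library totals had medians of 10511143 in WT and 11926833 in KI. The difference in their means was within their spread (exact permutation test on means, two-sided p = 0.943). Ribosomal RNA genes, most of them mitochondrial, took 16.8% to 22.9% of the counts, and the difference in this share was within its spread as well (exact permutation test, two-sided p = 0.971). A count of 0 in a library allows up to 3 counts, or 0.166 to 0.324 CPM (counts scaled to a common library depth), a limit for counting error only. CPM values take each library's total times its TMM factor as the depth, and differences between genotypes are log2 fold changes (KI minus WT) with standard errors (SE) from edgeR.

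Genes of the sex chromosomes served to check the labels. Xist, the RNA that silences an X chromosome in females, had at most 4 counts in any of these libraries. The Y-linked gene Ddx3y lay between 81.3 and 107 CPM in WT and between 87.1 and 92.3 CPM in KI libraries, so that m was read as male. Markers of surveying microglia were abundant: P2ry12, the purinergic receptor that guides microglial processes, had 1561 to 1677 CPM in WT and 1480 to 1762 CPM in KI. RNA of other cells was also present. The summed level of 21 neuronal marker genes ran from 698 to 1812 CPM per library, and that of 18 endothelial markers from 330 to 405 CPM, of which Bsg alone gave 214 CPM on average. Red blood cell genes summed to at most 3.58 CPM in any library, and 12 of 14 lymphocyte markers had a mean under 1 CPM.

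The libraries of a genotype did not all lie together. The first principal component of log2 CPM held 36.2% of the variance. KI replicates 1 and 2 lay at 40.6 and 47.6 on it and KI replicate 4 at 11.5, whereas KI replicate 3 lay at -21.8, among the WT libraries, which ran from -46.6 to -9.85. The labels number the libraries from 1 to 16: WT replicates 1 and 2 are libraries 1 and 2, KI replicates 1 and 2 are 6 and 7, WT replicates 3 and 4 are 9 and 10, and KI replicates 3 and 4 are 15 and 16. What the number stands for is not given in the sources used here, so it is used only as a number. Several gene lists are therefore also described within numbers 1 to 8 and 9 to 16, or without KI replicate 3. That library was picked after it was seen to lie among the WT libraries, so leaving it out favours a larger contrast. Counts without it are a description and add no support to those of all 8 libraries.

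Genotype was called for 4 of 18351 genes (0.0218%) by the quasi-likelihood test of edgeR, with an FDR (Benjamini-Hochberg) under 0.1 and a log2 fold change beyond 0.5 in either direction. Cdr1os, Mid1 and G530011O06Rik rose (0.0163%) and Dop1b fell (0.00545%) in KI microglia, and G530011O06Rik lies within Mid1, so the calls stand for 3 loci. Of the calls 75.0% were higher, against 54.5% of the 11 made with RLE or upper quartile normalization. The balance turned to mostly lower calls when all 16 libraries were fitted (34.8% higher of 46), with DESeq2 (29.6% of 240), with the range of library numbers as a term (16 of 100) and without KI replicate 4 (30.0% of 10). At an unadjusted p below 0.05 there were 1824 genes (9.94%), 820 of them higher (4.47%) and 1004 lower (5.47%). Every KI library lay above every WT library for 305 genes (1.66%) and below for 626 (3.41%), and all 4 called genes were among these.

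Cdr1os (ENSMUSG00000071753) is a long non-coding RNA on the X chromosome (GRCm39 chrX:60159705-60247391, plus strand). Its locus gives rise to the circular RNA Cdr1as, known in neurons for its many binding sites for the microRNA miR-7. The WT libraries had 152, 122, 126 and 115 CPM of Cdr1os, and the KI libraries 297, 259, 254 and 278 CPM. The lowest KI library therefore lay well above the highest WT library. The means were 129 ± 16.1 CPM in WT and 272 ± 19.8 CPM in KI (SD, n = 4 each). The log2 fold change was 1.08 (SE 0.0905, edgeR FDR 0.00154). It was called whichever of the 8 libraries was left out, with values from 1.03 to 1.17.

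The miR-7 family is shown with its seed (bases 2 to 8) in capitals, as given in RefSeq (GRCm38.p6), beside a stretch of 150 bases of a Cdr1os exon that pairs with it (GRCm39 chrX:60227307-60227456, plus strand), in which capitals mark GTCTTCC, the complement of that seed.
miR-7a-5p: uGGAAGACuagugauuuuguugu
miR-7b-5p: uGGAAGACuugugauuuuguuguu
Cdr1os: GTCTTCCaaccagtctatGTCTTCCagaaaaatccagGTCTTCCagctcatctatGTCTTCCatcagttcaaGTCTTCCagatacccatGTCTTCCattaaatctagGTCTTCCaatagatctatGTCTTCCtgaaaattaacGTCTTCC
Both miR-7 members share the seed. The stretch holds 9 copies of its complement, and the exon of 2927 bases around it (chrX:60226854-60229780) holds 123 on the plus strand and 0 on the minus strand. Of stretches of 150 bases in long non-coding transcripts other than Cdr1os, 1.54% hold at least 1 copy on the sense strand and 3.88% on either strand. A match is a description of the letters only. Gene counts do not separate circular from linear transcripts, and which of them gave the higher count was not tested.

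Cdr1, annotated on the other strand inside Cdr1os (chrX:60227611-60229164), had 15.95, 15.7, 10.3 and 7.95 CPM in WT and 39.3, 36.1, 21.7 and 20.98 CPM in KI libraries. Its groups did not overlap, but it missed the call (log2 fold change 1.22, SE 0.257, edgeR FDR 0.179). The strand used for counting is not given in the sources used here, so reads of Cdr1 and Cdr1os cannot be told apart with certainty. Cdr1 was named after its values were seen.

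Mid1 (ENSMUSG00000035299, chrX:168468195-168773794, plus strand) encodes a ubiquitin ligase of the TRIM family that sits on microtubules and promotes the breakdown of the phosphatase PP2A. In the mouse the gene spans the pseudoautosomal boundary, the edge of the region that the X and Y chromosomes share. Its level was 10.6, 5.19, 9.75 and 4.85 CPM in WT and 29.9, 40.0, 43.0 and 49.3 CPM in KI libraries. Every KI library thus had more than the highest WT library, and the KI replicates 3 and 4 were the highest. The means were 7.61 ± 3.01 CPM in WT and 40.6 ± 8.08 CPM in KI (SD, n = 4 each), a ratio of 5.33 and a log2 fold change of 2.44 (SE 0.245, edgeR FDR 0.00419).

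G530011O06Rik, a non-coding transcript that RefSeq (GRCm38.p6) places inside Mid1 on the opposite strand, with a further copy on the Y chromosome, moved with it. It had 31.1, 12.2, 26.8 and 16.9 CPM in WT and 68.2, 91.8, 111 and 136 CPM in KI libraries, which did not overlap. Its log2 fold change was 2.24 (SE 0.28, edgeR FDR 0.0272). As for Mid1, WT replicates 1 and 3 lay above WT replicates 2 and 4. Without WT replicate 4 it was no longer called (FDR 0.235), whereas Mid1 was called whichever library was left out.

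Mid1-ps1 (ENSMUSG00000095134), an unprocessed pseudogene on the Y chromosome (chrY:90764326-90774754, plus strand), was counted 0, 2, 1 and 2 times in the WT libraries and 11, 9, 22 and 15 times in the KI libraries. The ratio of the summed counts, scaled for depth, had a 95% counting interval of 4.44 to 35.1. With the m libraries fitted alone, the gene was not called by edgeR (FDR 0.136). It was called by edgeR in the m contrast when all libraries of the series were fitted. Its transcript of 1248 bases differs from Mid1 in 5 bases (99.6% identity, no gaps). To show how few bases separate their reads, 100 bases of both are given, which are coding in Mid1. They lie at GRCm39 chrX:168767995-168768094 for Mid1 and chrY:90770791-90770890 for Mid1-ps1, with the differing bases in capitals.
Mid1: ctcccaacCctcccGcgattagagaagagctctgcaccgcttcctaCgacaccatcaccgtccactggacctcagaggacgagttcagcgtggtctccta
Mid1-ps1: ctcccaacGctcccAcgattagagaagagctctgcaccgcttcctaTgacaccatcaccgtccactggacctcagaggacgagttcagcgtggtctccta
Counted from the left, the 3 differences are C9G, G15A and C47T. Elsewhere in this stretch a read fits both genes equally, so how the counts divide between them is uncertain. In the f libraries, where Ddx3y had at most 0.0658 CPM, Mid1-ps1 had 0, 0, 0 and 0.169 CPM in WT and 0.986, 1.03, 0.852 and 0.962 CPM in KI, so counts were assigned to it in libraries with next to no Y-linked RNA. Mid1-ps1 was named as a member of the MID1 list, in which 2 of 7 genes had an unadjusted p below 0.05 on the higher side (background 4.47%). These 2 were Mid1 itself and Mid1-ps1, whose reads can hardly be told apart, so they are not 2 separate results. DESeq2 in the m libraries and edgeR with all libraries of the series each called 2 of the 7 higher. Over all genes DESeq2 called 71 of 16914 higher, and that edgeR fit 0.0878%. Of the other MID1 genes, Igbp1, which encodes the PP2A subunit alpha4, had a log2 fold change of -0.20 (SE 0.0833, edgeR FDR 0.47). Ppp2ca, the catalytic subunit of PP2A, gave the most counts of that list, 165 CPM on average.

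Dop1b (ENSMUSG00000022946) encodes a protein of intracellular membrane traffic and lies on chromosome 16 (chr16:93508690-93608264), 8.54 Mb from App. Its level was 58.6, 61.9, 59.0 and 62.8 CPM in WT and 31.6, 30.3, 32.6 and 37.3 CPM in KI libraries. The replicates of each genotype stayed close together, and the KI mean was 0.544 of the WT mean. The log2 fold change was -0.88 (SE 0.0769, edgeR FDR 0.00154), and leaving out any library moved it only between -0.94 and -0.84.

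App itself (ENSMUSG00000022892, chr16:84746573-84971126), the gene that carries the knock-in, had 469, 464, 389 and 377 CPM in WT and 414, 389, 392 and 398 CPM in KI libraries. The KI libraries lay within the range of the WT libraries. The log2 fold change was -0.09 (SE 0.0793, edgeR FDR 0.72), for counts taken with human App sequences added to the reference by the authors. Of 94 tested genes within 10 Mb of App, edgeR called Dop1b alone in the 8 libraries (1 of 94, background 0.0218%). DESeq2 called 2 of them lower, where it called 169 of 16914 genes lower. The fit of all 16 libraries and that without KI replicate 3 also called 2 lower (background 0.165% and 0.475%). In the 8 libraries 4 had an unadjusted p below 0.05 on the higher and 7 on the lower side, near the 4.47% and 5.47% of all genes.

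The next of these genes by p were chosen after their values were seen. The non-coding 4930404I05Rik had 13.5, 13.9, 10.8 and 10.7 CPM in WT and 3.35, 3.81, 6.03 and 7.57 CPM in KI (log2 fold change -1.23, edgeR FDR 0.175). Slc5a3, the sodium-dependent transporter of myo-inositol, had 25.8, 25.4, 30.6 and 27.3 CPM in WT and 32.8, 36.3, 37.6 and 36.9 CPM in KI (log2 fold change 0.40, edgeR FDR 0.175). Neither overlapped between the genotypes. Neither was called by edgeR in the 8 libraries, and 4930404I05Rik was called when all 16 were fitted.

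**Figure D1:**
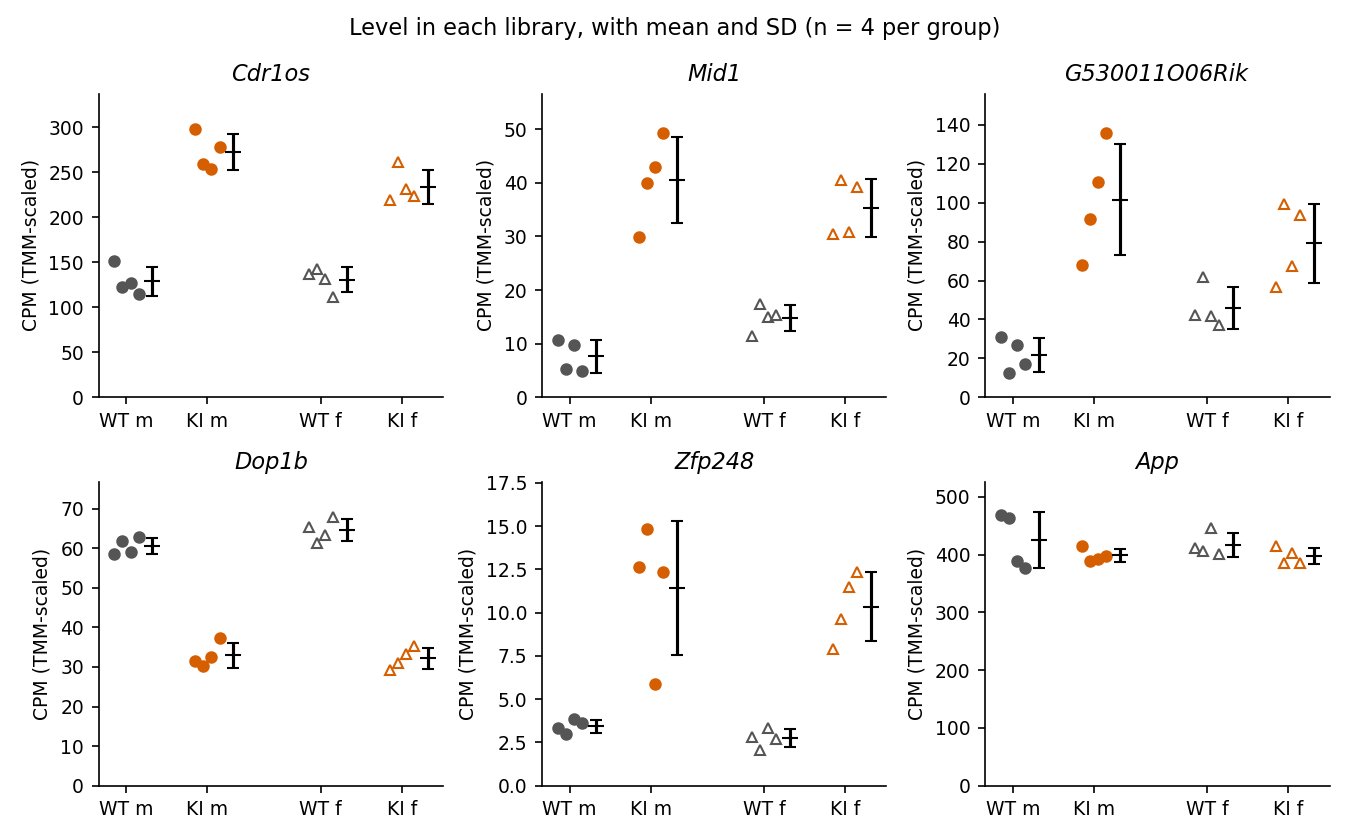
CPM (vertical axes, from 0) of the 4 called genes and of Zfp248 and App in each WT (grey) and KI (orange) library. Circles are m and open triangles f libraries, which were scaled separately, and black marks give mean and SD (n = 4). In the m libraries the KI and WT circles do not overlap except for App, where the 4 KI values of 389 to 414 CPM sit inside the WT range.

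The f libraries, which share no sample with these, hold the same contrast in the other sex and were fitted alone, with 8.67% of 18474 genes called, 3.84% higher and 4.83% lower. All 4 genes were called there with the same sign. The log2 fold change in f was 0.84 for Cdr1os, -1.003 for Dop1b, 1.27 for Mid1 and 0.80 for G530011O06Rik. Mid1 and G530011O06Rik had a larger value in m than in f, but the difference between the sexes missed the threshold (1.16 for Mid1 and 1.44 for G530011O06Rik on the log2 scale, edgeR FDR 0.256 for both). The mean level of Mid1, with CPM scaled separately in each sex, was 7.61 CPM in m and 14.8 CPM in f for WT, and 40.6 and 35.3 CPM for KI.

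More genes passed when all 16 libraries were fitted as 4 groups, so that the f libraries added to the estimate of the spread: 46 genes (0.252%) were called in the m contrast, 16 higher (0.0878%) and 30 lower (0.165%). Of these 46, 36 were also called with the same sign in the f libraries alone, which is no independent check, since the f libraries helped to set the spread by which the 46 were chosen. They were named after their values were seen. Zfp248, a zinc finger gene on chromosome 6, had 3.31, 2.99, 3.85 and 3.62 CPM in WT and 12.6, 14.8, 5.86 and 12.3 CPM in KI. KI replicate 3 was the lowest of its group and still above WT. The log2 fold change in the 8 libraries was 1.74 (SE 0.259, edgeR FDR 0.112), and 0.00129 was the FDR without KI replicate 3.

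Long non-coding RNAs made up 23 of the 46 genes, of which Cdr1os rose and 22 fell. Mir142hg, the host transcript of miR-142, a microRNA of blood cells and microglia, had 59.7, 64.6, 80.2 and 77.1 CPM in WT and 22.6, 22.5, 41.0 and 46.0 CPM in KI. Its log2 fold change in the 8 libraries was -1.09 (SE 0.218, edgeR FDR 0.175). Among the 14 protein-coding genes were Arf6, a small GTPase of the endosome and plasma membrane, and Arc, an activity-regulated gene of neuronal plasticity. Arf6 had 62.1, 64.2, 54.0 and 65.0 CPM in WT and 33.0, 28.5, 52.6 and 33.5 CPM in KI, where replicate 3 reached almost the lowest WT value. Its log2 fold change in the 8 libraries was -0.73 (SE 0.16, edgeR FDR 0.183). Transcripts next to Arf6 on chromosome 12 were lower as well: Gm9887, which overlaps it on the other strand, by -1.10 and ENSMUSG00000120144, which starts downstream, by -0.73. Without a stated counting strand these 3 cannot be told apart fully. Arc had 22.8, 15.6, 12.9 and 16.5 CPM in WT and 34.5, 34.7, 24.7 and 32.4 CPM in KI (log2 fold change 0.89 in the 8 libraries, edgeR FDR 0.175).

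Non-coding classes leaned to one side over all tested genes too. Of 2044 long non-coding RNAs, 381 (18.6%) had an unadjusted p below 0.05 on the lower side, against 5.47% of all genes, and 70 (3.42%) on the higher side, against 4.47%. Their median log2 fold change was -0.22, and that of all genes -0.004. Transcripts of the TEC class, which await experimental evidence, leaned the other way at that p, with 140 of 1173 (11.9%) higher, 63 (5.37%) lower and a median of 0.29. Their calls did not: DESeq2 called 5 higher and 20 lower, against 71 and 169 of 16914 genes. The fit of 16 libraries called 1 higher and 2 lower (background 0.0878% and 0.165%). Without overlap 46 lay above WT and 45 below (background 1.66% and 3.41%). The contrast was also taken within each range of library numbers, from a fit of the 4 combinations of genotype and range with 2 libraries each. At an unadjusted p below 0.05, 10.1% of all genes were higher and 10.5% lower within numbers 1 to 8, and 2.6% higher and 3.67% lower within 9 to 16. Long non-coding RNAs had 144 higher and 557 lower within 1 to 8 (median -0.32) and 49 higher and 161 lower within 9 to 16 (median -0.13). The TEC class had 342 higher and 90 lower within 1 to 8 (median 0.62), and 18 higher and 43 lower within 9 to 16 (median -0.07), a lower share equal to the 3.67% of all genes. For the difference between the ranges, 327 long non-coding RNAs had the larger value in 9 to 16 and 96 in 1 to 8 at that p, and 62 and 211 TEC transcripts, where the shares of all genes were 7.24% and 6.46%. Over all 8 libraries protein-coding genes had a median of -0.002, with 540 of 13690 higher and 487 lower at that p.

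**Figure D2:**
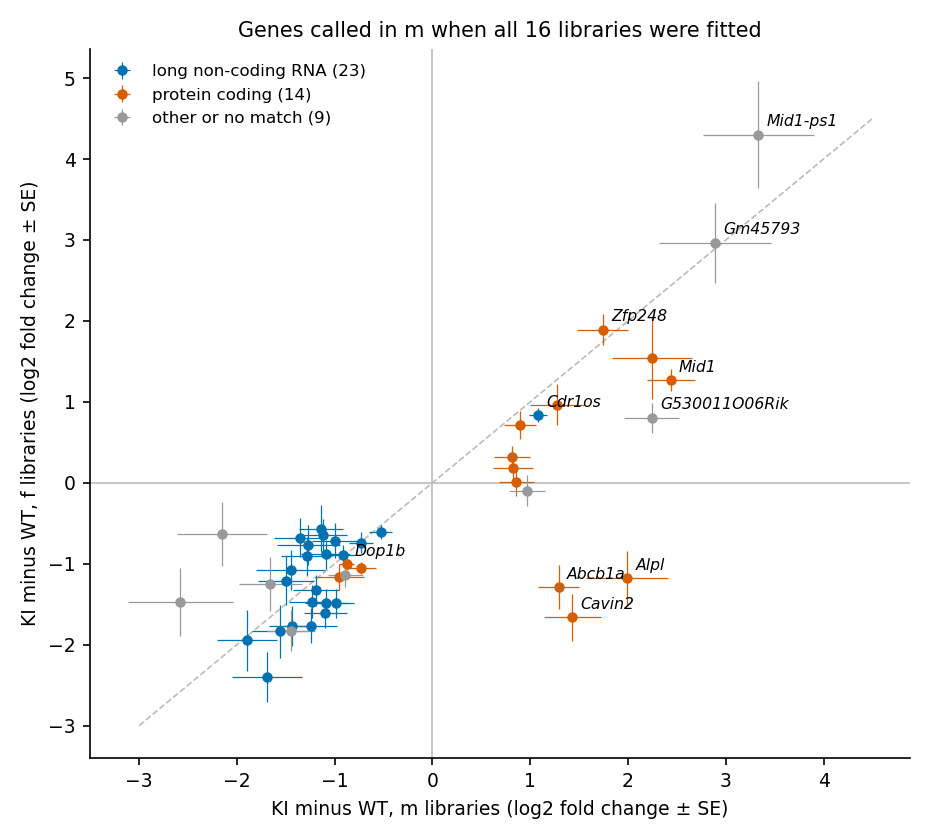
Log2 fold change (KI minus WT, with SE) of the 46 genes called in m with all 16 libraries, in the m libraries (horizontal axis, chosen on this contrast) and in the f libraries (vertical axis). Colours give the gene class and the dashed line marks equal values. Most genes lie near the line, and Abcb1a, Cavin2 and Alpl lie below 0 in f with 1.29, 1.43 and 1.99 in m.

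Immediate early genes, the transcription factors and feedback genes that cells switch on within minutes of a stimulus, separated the KI libraries among themselves. None of the 24 was called over the 8 libraries, with 6 lower and 1 higher at an unadjusted p below 0.05 (background 5.47% and 4.47%) and a median log2 fold change of -0.45, while DESeq2 called 1 higher. Their summed level was 8878, 8537, 9318 and 10100 CPM in WT, and 4015, 3898, 7905 and 9155 CPM in KI. KI replicates 1, 2 and 3 thus had less than any WT library, replicate 3 by the smallest margin, and KI replicate 4 fell inside the WT range. Without KI replicate 3, 10 of 24 were lower and 1 higher at an unadjusted p below 0.05 (median -0.59), where 7.41% of all genes were lower and 9.65% higher, with no call by edgeR.

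Within numbers 1 to 8, 20 of the 24 genes fell, where 3.81% of all genes were called lower, and the median was -1.065. Within numbers 9 to 16, 0 of 24 were called by edgeR, where 0.0109% of all genes were called lower. At an unadjusted p below 0.05, 5 of them were higher and 4 lower there, and the median was -0.02. The test of the difference between these contrasts called 19 of the 24, all with the larger value in 9 to 16, against 1.15% of all genes. In the f libraries 19 of the 24 fell (background 4.83%, median -1.37), and Fos there had 2440, 2636, 1271 and 1313 CPM in WT and 219, 376, 208 and 531 CPM in KI, where replicates 3 and 4 also carry numbers from 9 to 16. In f, then, KI lay below WT for Fos in both ranges. In the m libraries Fos, the classical immediate early factor, had 693, 451, 654 and 628 CPM in WT and 229, 195, 442 and 621 CPM in KI, with a log2 fold change of -1.43 (edgeR FDR 0.00481) within numbers 1 to 8 and -0.27 (FDR 0.94) within 9 to 16. Its difference between the contrasts missed the threshold (FDR 0.135). Zfp36, which destabilises inflammatory mRNAs, had 900, 920, 1171 and 1223 CPM in WT and 314, 317, 783 and 914 CPM in KI, and its contrasts did differ (FDR 0.00453). Jun, the member with the most counts, had 2062, 2094, 2011 and 2367 CPM in WT and 1164, 1086, 1936 and 2074 CPM in KI (FDR 0.0363 for the difference).

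Early inflammatory genes followed the same libraries. Their 20 members summed to 3345, 3584, 3737 and 3998 CPM in WT and to 1490, 1508, 3737 and 4136 CPM in KI. No member was called over the 8 libraries by edgeR or DESeq2, with 0 higher and 2 lower at an unadjusted p below 0.05 (background 4.47% and 5.47%), and 8 lower without KI replicate 3 (background 7.41%). Within numbers 1 to 8, 16 of 20 fell (background 3.81%), within numbers 9 to 16 none was called by edgeR (6 higher and 2 lower at an unadjusted p below 0.05), and the difference was called for 15 of 20 (background 1.15%). In f 16 of them fell (median -1.01). Tnf, the cytokine tumour necrosis factor, had 107, 102, 110 and 125 CPM in WT and 23.2, 23.7, 101 and 113 CPM in KI. Its log2 fold change was -2.15 within numbers 1 to 8 and -0.13 within 9 to 16 (edgeR FDR 0.000654 for the difference). Ccl3 and Ccl4, chemokines that microglia release, had contrasts of -1.47 and -1.31 within numbers 1 to 8 and of -0.24 and -0.08 within 9 to 16. Nfkbia, the inhibitor of NF-kB with the most counts in the list, had 560, 628, 605 and 690 CPM in WT and 251, 293, 614 and 615 CPM in KI.

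Heat shock genes, the chaperones induced by unfolded protein and warmth, differed between the WT libraries. Hspa1a, the inducible Hsp70, had 687, 1087, 352 and 283 CPM in WT and 1019, 969, 1170 and 1096 CPM in KI. WT replicates 3 and 4 were the lowest, and the KI libraries were near WT replicate 2. Over the 8 libraries edgeR called none of 20 heat shock genes and DESeq2 called 1 lower, with 2 higher and 2 lower at an unadjusted p below 0.05 (background 4.47% and 5.47%), and the log2 fold change of Hspa1a was 0.82 (SE 0.334, edgeR FDR 0.449). Within numbers 9 to 16, 8 of 20 rose, against 0.0708% of all genes, and within numbers 1 to 8, 6 of 20 fell (background 3.81%). The difference was called for 13 of 20 (background 1.15%). Hspa8 and Hsp90aa1, chaperones present in all cells, showed both directions: Hspa8 had a contrast of -0.36 within numbers 1 to 8 and 0.57 within 9 to 16, and Hsp90aa1 of -0.55 and 0.87. Cdr1os had contrasts of 1.03 and 1.14 in these ranges, Dop1b of -0.96 and -0.80, and Mid1 of 2.19 and 2.67. In the f libraries 3 heat shock genes rose and 2 fell (background 3.84% and 4.83%, median 0.05). Hspa1a had 22.25, 26.1, 291 and 329 CPM in WT and 1079, 1039, 1068 and 850 CPM in KI f libraries. In f, then, KI lay above WT for Hspa1a in both ranges.

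**Figure D3:**
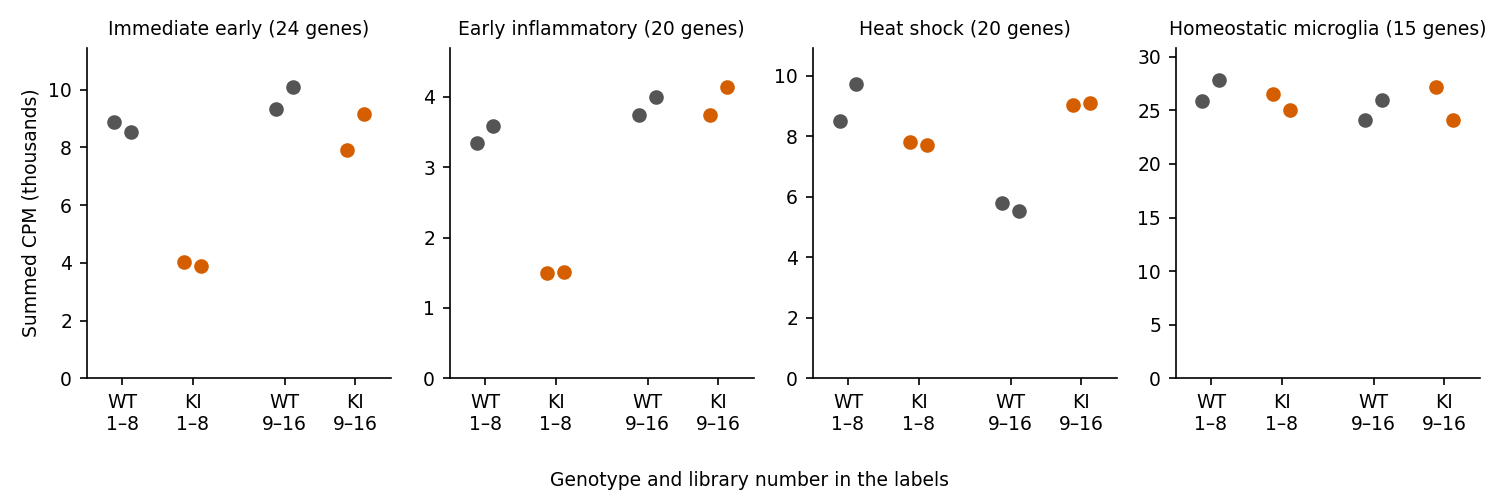
Summed CPM (vertical axes in kilo-CPM, from 0) of the immediate early, early inflammatory, heat shock and homeostatic microglia lists in each m library. Libraries are split by genotype and by library number (1 to 8 or 9 to 16, 2 libraries each). Immediate early sums of KI libraries 1 to 8 are 4015 and 3898 CPM, below the other 6, while homeostatic sums overlap throughout.

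Genes of the unfolded protein response, by which cells answer stress of the endoplasmic reticulum, included none that edgeR called over the 8 libraries, with 0 of 28 higher and 6 lower at an unadjusted p below 0.05 (background 4.47% and 5.47%) and a median of -0.075. Within numbers 1 to 8, 4 fell (background 3.81%) and 15 were lower at that p (background 10.5%, median -0.18), within 9 to 16 none was called, with 2 higher and 2 lower (median 0.02), and the difference was called for 3 (background 1.15%). Without KI replicate 3, 1 was called lower (background 0.475%). Herpud1, a factor of protein removal from the endoplasmic reticulum, had 146, 150, 162 and 188 CPM in WT and 86.8, 88.5, 128 and 130 CPM in KI, without overlap. Its log2 fold change was -0.57 (SE 0.142, edgeR FDR 0.245). Atf4, the transcription factor of the integrated stress response, had -0.43 (SE 0.14, FDR 0.357), and Xbp1, a factor activated by splicing under such stress, -0.27 (SE 0.0737, FDR 0.285). Hsp90b1, the chaperone with the most counts of the list, had -0.08 (SE 0.0753, FDR 0.745).

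Over the whole table, 1168 genes (6.36%) were called within numbers 1 to 8, 469 higher (2.56%) and 699 lower, and 15 (0.0817%) within numbers 9 to 16, 13 higher and 2 lower. The 15 contained Cdr1os, Dop1b, Mid1 and G530011O06Rik, so the 4 genes were called in both ranges. A difference between the ranges was called for 231 genes (1.26%), 20 of them with the larger value in numbers 1 to 8 (0.109%). Other lists also held calls within numbers 1 to 8, some at a share near that of all genes (2.56% higher, 3.81% lower) and others above it. Of these, 3 of 63 phagocytosis genes, 1 of 16 complement genes and 4 of 16 genes of the p53 response fell. So did 1 of 19 proliferation genes and 1 of 11 monocyte markers, and of 94 genes near App 2 rose and 6 fell. There 2 of 20 clock, 2 of 24 cholesterol, 1 of 20 App processing and 1 of 9 noradrenaline genes rose, as did 1 of 11 neuroblast, 1 of 11 ensheathing and 1 of 13 pericyte markers, and 3 clock genes fell. Among 23 Arf genes 1 rose and 1 fell. Among 12 oligodendrocyte markers 3 rose, among 21 neuronal markers 4 and among 7 MID1 genes 2. Within numbers 9 to 16, Mid1 and the heat shock genes were the list members called, beside Dop1b near App. What the library number stands for in these differences was not tested.

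No gene that marks surveying microglia was called by edgeR over the 8 libraries or in either range of numbers. Of 15 homeostatic genes, 0 were called or had an unadjusted p below 0.05 in edgeR, and their log2 fold changes ran from -0.11 (Siglech, a sialic acid receptor) to 0.12 (P2ry13, a purinergic receptor), with a median of 0.008. Tmem119, a microglial membrane protein, had a log2 fold change of 0.03 (SE 0.0753), and Cx3cr1, the fractalkine receptor, one of 0.05 (SE 0.0672). Of 38 genes of plaque-associated microglia none was called or had an unadjusted p below 0.05 over the 8 libraries either, and the median was -0.03. Of the 38, 5 fell within numbers 1 to 8 (background 3.81%) and 17 were lower there at that p (background 10.5%, median -0.21). Within 9 to 16 none was called, with 7 higher and 1 lower at that p (background 2.6% and 3.67%, median 0.12), and the difference between the ranges was called for 4 (background 1.15%). Without KI replicate 3 none was called and 7 were lower at that p, where 9.65% of all genes were higher and 7.41% lower. Apoe, the lipid carrier with the most counts of this list, had 4220, 3662, 3476 and 2546 CPM in WT and 2730, 3386, 3843 and 4119 CPM in KI (log2 fold change 0.02, SE 0.155). Trem2, a lipid-sensing receptor needed for the plaque response, had a log2 fold change of -0.06 (SE 0.0801), and Itgax, the integrin CD11c, one of 0.06 (SE 0.133). Cst7, an inhibitor of lysosomal proteases, had -0.03 (SE 0.173). The extremes of the list were Ccl3 at -0.67 and Ch25h at 0.69, the latter with at most 1.15 CPM in any library.

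Related functions gave few genes over the 8 libraries. No member of the lysosome list (35 genes, median -0.07) or the interferon list (24 genes, median 0.13) had an unadjusted p below 0.05 in edgeR, nor did any of 20 genes of App processing (median 0.007). The interferon list had opposite signs in the ranges: within numbers 1 to 8, 7 were lower at that p (background 10.5%, median -0.60), and within 9 to 16, 11 were higher (background 2.6%, median 0.77). None was called by edgeR in either range, and 17 of 24 had that p for the difference with the larger value in 9 to 16 (background 7.24%). Of the lysosome genes 12 were lower within 1 to 8 (background 10.5%, median -0.17) and 0 within 9 to 16 (median 0.03), with no call by edgeR in either. Among 63 phagocytosis genes edgeR called 0 in the 8 libraries, and Arf6 was called by DESeq2, with 16 libraries and without KI replicate 3. At that p 4 were lower, a share near the 5.47% of all genes: Arf6, Jmjd6, Xkr8 and Ucp2. Jmjd6, a nuclear hydroxylase, had a log2 fold change of -0.37 (SE 0.112, edgeR FDR 0.321), and Ucp2, a mitochondrial carrier, one of -0.21 (SE 0.0666, FDR 0.337). Lrp1, the endocytic receptor with the most counts, was on average at 2460 CPM. Within numbers 1 to 8, 18 phagocytosis genes were lower at that p (background 10.5%, median -0.14). Within 9 to 16, 5 were higher and 2 lower (background 2.6% and 3.67%, median 0.06). For the difference 12 had that p, with the larger value in 9 to 16 (background 7.24%), and 2 were called (background 1.15%). Of 16 complement genes C1qb, a chain of the first complement component, alone was lower at that p over the 8 libraries. Its log2 fold change was -0.18 (SE 0.0653, edgeR FDR 0.415). Within numbers 1 to 8, 5 complement genes were lower at that p (background 10.5%, median -0.19), and within 9 to 16, 1 was higher (background 2.6%, median 0.10). Of 21 MHC genes H2-K1 and H2-Q4, class I genes, were lower at that p over the 8 libraries, by -0.44 (SE 0.161) and -0.46 (SE 0.207). B2m gave the most counts at 985 CPM on average. Of the MHC genes 4 fell within numbers 1 to 8 (background 3.81%) and 11 were lower there at that p (background 10.5%, median -0.42). Within 9 to 16 none was called and 5 were higher at that p (background 2.6%, median 0.12), and the difference was called for 2 (background 1.15%). Irf9, an interferon signalling factor, had 43.2 to 64.7 CPM in WT and 47.7 to 61.6 CPM in KI.

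Of 9 tested genes of noradrenaline signalling, 2 were higher at an unadjusted p below 0.05 (background 4.47%) and none was called by edgeR or DESeq2. Adra1a, an alpha-1 adrenergic receptor, had 11.8, 6.49, 12.02 and 12.6 CPM in WT and 19.9, 22.1, 8.54 and 15.8 CPM in KI, with KI replicate 3 inside the WT range (log2 fold change 0.65, SE 0.281, edgeR FDR 0.48). Maoa, which breaks down noradrenaline, had a log2 fold change of 0.45 (SE 0.141, FDR 0.337), and Adrb1, a beta adrenergic receptor, was the lowest of the list at -0.55. Among 23 Arf GTPase genes 1 was higher and 3 lower at that p (background 4.47% and 5.47%), and Psd3, an exchange factor for Arf6, had 52.4, 48.4, 51.6 and 55.7 CPM in WT and 69.6, 77.3, 61.4 and 62.7 CPM in KI (log2 fold change 0.38, SE 0.0845, FDR 0.197).

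The remaining lists held no call by edgeR over the 8 libraries, and DESeq2 called 1 monocyte marker higher. Their counts at an unadjusted p below 0.05 stand against 4.47% of all genes higher and 5.47% lower. Among 20 clock genes 2 were higher and 2 lower at that p, and Per1, a clock gene that also answers to stimuli, had a log2 fold change of -0.50 (SE 0.185, edgeR FDR 0.412). Of 24 cholesterol genes 1 was higher and 1 lower, and Abca1, the cholesterol exporter, gave the most counts. Of 19 proliferation genes Pcna, the sliding clamp of DNA replication, was the only one at that p, with -0.48 (SE 0.143, FDR 0.313). Of 16 genes of the p53 response 1 was higher and 1 lower, and of 10 tested mitochondrial genes 0 were in either direction by edgeR. Of 13 border macrophage markers 0 were, with Stab1 at 800 CPM on average. Monocyte markers included 1 of 11 higher (Fn1, the matrix protein fibronectin, 0.74, SE 0.233), and neutrophil markers 1 of 9 lower (Csf3r, also expressed by microglia, -0.28, SE 0.0995).

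**Figure D4:**
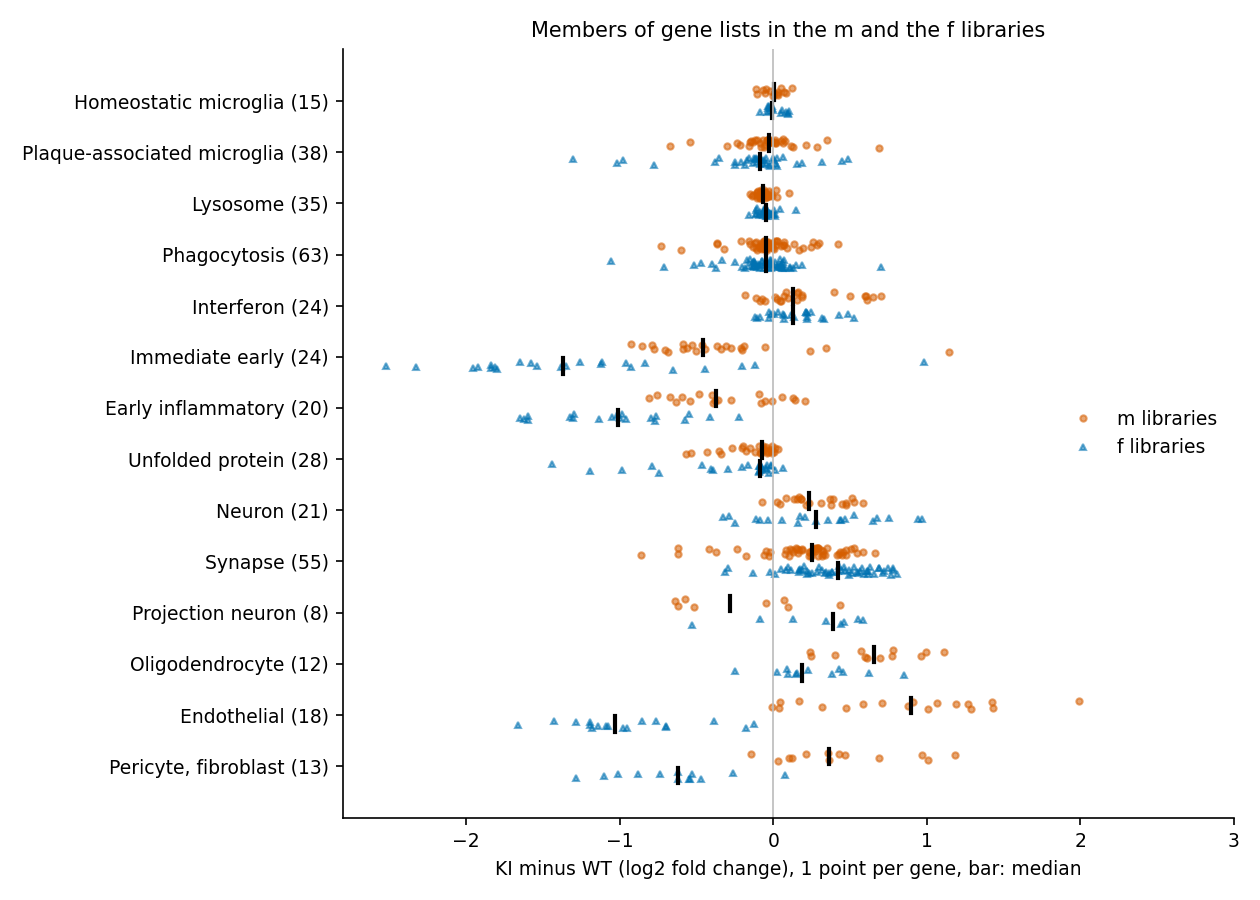
Log2 fold change (KI minus WT, horizontal axis) of each tested member of 14 gene lists in the m libraries (orange circles) and the f libraries (blue triangles), with the median as a bar and the number tested in m beside each name. Homeostatic and lysosome genes lie near 0 in both, and the endothelial medians are 0.90 in m and -1.03 in f.

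Markers of oligodendrocytes, the myelin-forming cells, leaned to higher values in KI microglia preparations, with a median log2 fold change of 0.65. Of 12 tested markers 9 had an unadjusted p below 0.05 on the higher side (background 4.47%), 12 had a value above 0, and 4 did not overlap between the genotypes (background 1.66%). None was called by edgeR in the 8 libraries. DESeq2 called 5, where it called 71 of 16914 genes higher. Without KI replicate 3 edgeR called 4, where 0.768% of all genes were called higher. Mbp, which encodes myelin basic protein and gave the most counts of the list, had 90.1, 93.7, 80.0 and 87.6 CPM in WT and 128, 137, 112 and 147 CPM in KI, with a log2 fold change of 0.57 (SE 0.0871, edgeR FDR 0.118). KI replicate 3 was the lowest KI library and still above WT. The summed list was 285, 291, 251 and 263 CPM in WT and 399, 403, 329 and 456 CPM in KI. The median was 0.61 within numbers 1 to 8 and 0.68 within 9 to 16, and in the f libraries it was 0.19 with 0 of the genes called. In such bulk samples more cells of a type and more RNA per cell cannot be told apart.

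Markers of endothelial cells, which line the blood vessels, leaned to higher values in KI in m. Of 18 tested markers 12 had an unadjusted p below 0.05 on the higher side (background 4.47%) and 0 on the lower side, 8 lay above WT without overlap (background 1.66%), 17 had a value above 0, and the median log2 fold change was 0.90. None was called by edgeR in the 8 libraries. DESeq2 called 8, where it called 71 of 16914 genes higher. Without KI replicate 3 edgeR called 6, where 0.768% of all genes were called higher. Abcb1a, the efflux pump of the blood-brain barrier, had 4.36, 2.65, 3.85 and 4.13 CPM in WT and 7.65, 10.8, 6.95 and 10.7 CPM in KI, a log2 fold change of 1.29 (SE 0.213, edgeR FDR 0.131). Cavin2, a coat protein of caveolae, had 1.046, 0.734, 0.794 and 1.55 CPM in WT and 2.06, 3.23, 2.68 and 2.96 CPM in KI. Pecam1, a defining endothelial marker that myeloid cells also carry, had 28.1 to 30.1 CPM in WT and 27.8 to 31.3 CPM in KI (log2 fold change 0.05, SE 0.0723). Cldn5, the claudin of endothelial tight junctions, had 5.41, 2.37, 4.08 and 3.20 CPM in WT and 3.96, 5.80, 5.11 and 7.35 CPM in KI, with overlap. The range of numbers 1 to 8 held 7 calls (background 2.56%, median 1.155) and that of 9 to 16 held 0 by edgeR, with 5 higher at an unadjusted p below 0.05 (background 2.6%, median 0.65). The summed list, dominated by Bsg (log2 fold change -0.008), was 343, 330, 333 and 352 CPM in WT and 359, 405, 364 and 399 CPM in KI. Of 13 pericyte and fibroblast markers 3 were higher at an unadjusted p below 0.05 (median 0.36), and DESeq2 called 1 of them higher.

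In the f libraries the median of the endothelial markers was -1.03, and 13 fell, against 4.83% of all genes. Markers of other cell types also fell there, with 7 pericyte and fibroblast markers (median -0.62), 3 astrocyte markers (median -0.51) and 2 ensheathing markers (median -0.45) called lower. Over all 16 libraries the genotype effect differed between the sexes for 5 genes (edgeR interaction term, 0.0274%), each with a larger value in m. Leaving out 1 library gave 1 to 43 such genes, with 43 without WT f replicate 4, 38 without WT f replicate 3, and 1 to 3 without most others. These were Cavin2 with a difference of 3.09, Alpl with 3.17, Abcb1a with 2.58, Cavin1 with 1.96 and Nr1d1 with 1.06 on the log2 scale. Cavin2, Cavin1, Abcb1a and Alpl belong to the endothelial list, and Nr1d1 encodes a repressor of the circadian clock. With CPM scaled separately in each sex, the WT mean of Abcb1a was 3.75 CPM in m and 15.2 CPM in f. Its KI means were 9.03 and 6.14 CPM. For Cavin2 the WT means were 1.03 and 4.5 CPM, and the KI means 2.73 and 1.39 CPM. Cavin1 and Alpl also had a higher WT mean and a lower KI mean in f than in m. WT f replicates 1 and 2 had the highest values of each of these endothelial genes. Nr1d1 had 10.8, 10.8, 11.7 and 12.5 CPM in WT and 12.04, 13.5, 14.6 and 17.9 CPM in KI m libraries, a log2 fold change of 0.35 (SE 0.133, edgeR FDR 0.42), and one of -0.72 in f (FDR 0.00593). The part of blood vessel RNA in the difference was not tested.

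Neuronal genes varied with single m libraries. Of 55 canonical synapse genes 12 had an unadjusted p below 0.05 on the higher and 2 on the lower side (background 4.47% and 5.47%), with a median of 0.25. None was called by edgeR and 2 were called lower by DESeq2. Of the synapse genes 10 rose and 2 fell within numbers 1 to 8 (background 2.56% and 3.81%), with 25 higher at that p (background 10.1%, median 0.44), and within 9 to 16 none was called, with 2 higher and 2 lower (median -0.02). With KI replicate 3 left out, 1 rose and 1 fell (background 0.768% and 0.475%), and 33 were higher at that p (background 9.65%). Of 21 neuronal markers 5 were on the higher side (background 4.47%) and 0 on the lower, with a median of 0.23, and edgeR called 0 and DESeq2 1 of them. The neuronal sums were 1250, 698, 1175 and 1161 CPM in WT and 1646, 1812, 896 and 1437 CPM in KI. WT replicate 2 and KI replicate 3 were the lowest of their groups, and the genotypes overlapped through KI replicate 3. Of the neuronal markers 4 rose within numbers 1 to 8 (background 2.56%). There 10 were higher at an unadjusted p below 0.05 (background 10.1%, median 0.60). Within 9 to 16 none was called or had that p (median -0.03). Without KI replicate 3, 1 rose and 9 were higher at that p (background 0.768% and 9.65%, median 0.36). Grin2b, a subunit of the NMDA receptor, had 108, 61.9, 109 and 105 CPM in WT and 166, 182, 78.6 and 148 CPM in KI (log2 fold change 0.59, SE 0.241, edgeR FDR 0.455). In the f libraries, fitted alone, 13 synapse genes rose and 0 fell (background 3.84% and 4.83%, median 0.42). Of the neuronal markers 5 rose and 0 fell there (median 0.28).

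Interneuron markers of the bulb had 4 of 17 higher at an unadjusted p below 0.05 (background 4.47%) and a median of 0.29. Of these markers 5 rose within numbers 1 to 8 (background 2.56%, median 0.58), and within 9 to 16 none was called or had that p (median -0.02). With KI replicate 3 left out, 2 rose and 10 of 17 were higher at that p (background 0.768% and 9.65%). Synpr, a synaptic vesicle protein of granule cells, had 12.5, 7.62, 8.16 and 10.5 CPM in WT and 21.5, 21.2, 9.79 and 16.2 CPM in KI (log2 fold change 0.83, SE 0.242, edgeR FDR 0.308). Markers of the projection neurons, the mitral and tufted cells, had a median of the other sign, -0.28, with 3 of 8 above 0. At that p 3 were lower (background 5.47%) and 0 higher. Of these 3 fell within numbers 1 to 8 (background 3.81%, median -0.36), and none was called within 9 to 16, with 1 lower at that p (median -0.31). Slc17a7, the vesicular glutamate transporter of these cells, had 19.0, 22.96, 27.0 and 22.6 CPM in WT and 15.5, 12.1, 16.9 and 14.9 CPM in KI, without overlap (log2 fold change -0.62, SE 0.13, edgeR FDR 0.175). Reln, the secreted protein reelin, had 92.0, 111, 109 and 77.4 CPM in WT and 70.2, 41.5, 75.8 and 74.7 CPM in KI (log2 fold change -0.57, SE 0.176, FDR 0.333). Cdhr1, a cadherin of mitral and tufted cells, had a log2 fold change of -0.64 (SE 0.188, FDR 0.313). In the f libraries 7 interneuron markers rose and 0 fell (background 3.84% and 4.83%, median 0.44). The median of the projection neuron list was 0.39 in f, with 0 called. The difference between the sexes for Slc17a7 was -0.97 and missed the threshold (FDR 0.716), and the sexes were not tested for the list.

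Astrocyte markers had a median of 0.14 and neuroblast markers of 0.28, with 0 of 13 and 1 of 11 higher at an unadjusted p below 0.05 (background 4.47%). Without KI replicate 3, 4 astrocyte markers (median 0.28) and 5 neuroblast markers (median 0.29) were higher at that p (background 9.65%). There 1 neuroblast marker was called higher (background 0.768%). The medians within numbers 1 to 8 and 9 to 16 were 0.27 and 0.03 for astrocytes and 0.28 and 0.12 for neuroblasts. The neuroblast gene in the 8 libraries was Dcx, the microtubule protein doublecortin, with 17.0, 11.1, 18.4 and 21.7 CPM in WT and 32.3, 38.0, 15.7 and 27.8 CPM in KI (log2 fold change 0.76, SE 0.256, edgeR FDR 0.376). KI replicate 3 lay inside the WT range again. Precursors of oligodendrocytes (7 tested, median 0.28) had no gene at that p, and olfactory ensheathing markers (11 tested, median 0.29) had 1 on the higher side.

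The number of calls depended strongly on which libraries were compared. Without KI replicate 3 there were 225 genes (1.24%), 139 higher (0.768%) and 86 lower (0.475%), and without KI replicate 4 there were 10. Leaving out any other library gave 3 to 5. Among lists in which edgeR called no gene, DESeq2 also called 1 heat shock, 1 unfolded protein response, Arf6 and 2 projection neuron markers lower, and 1 interneuron and 1 ensheathing marker higher. Over the whole table DESeq2 called 71 of 16914 genes higher and 169 lower. Of the 1566 genes called in f that were tested in m, 89.3% had the same sign in m. The genes called higher in f had a median log2 fold change of 0.92 in f and 0.47 in m, and those called lower had -1.10 in f and -0.51 in m.

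**Figure D5:**
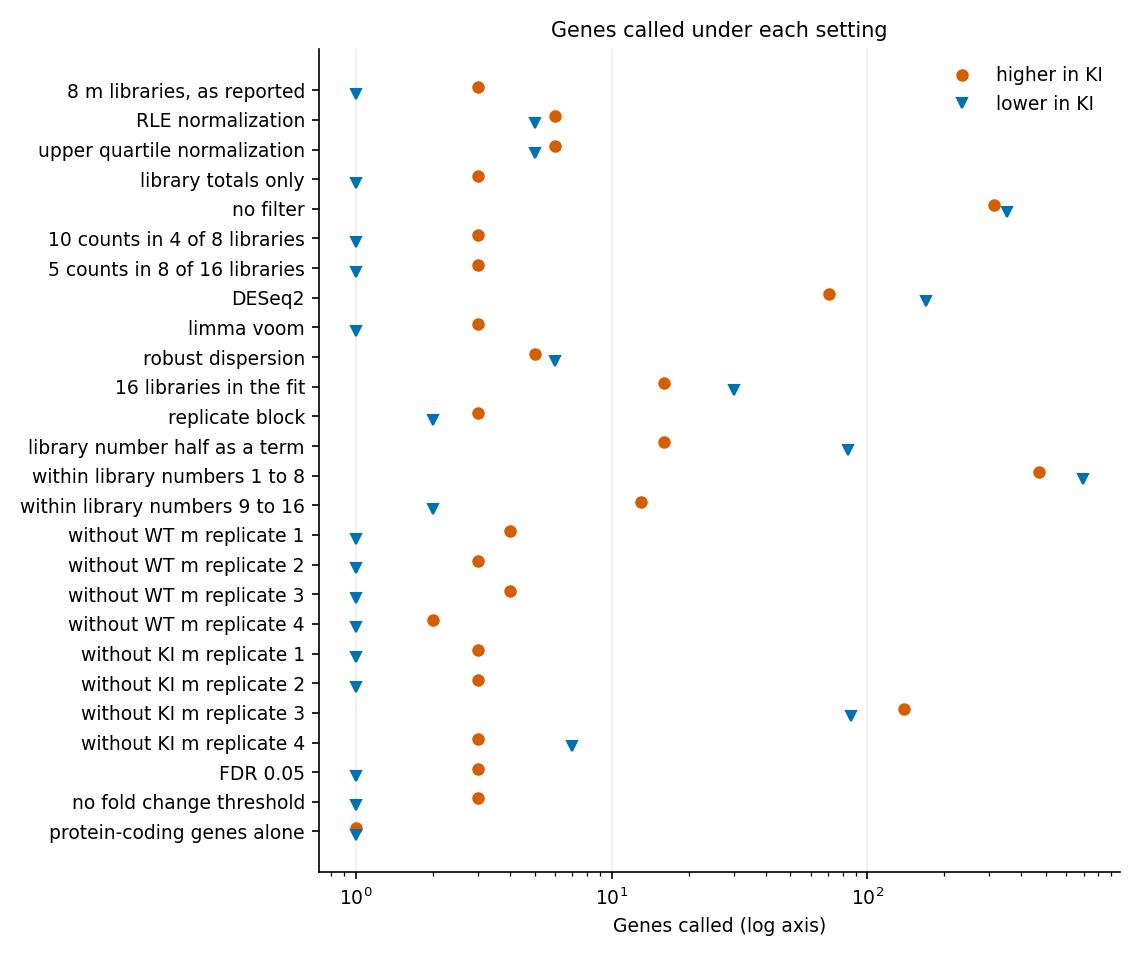
Number of genes called higher (orange) and lower (blue) in KI m libraries under each setting (rows), on a log axis. Leaving out 1 library gives between 3 and 225 calls, and the contrast within library numbers 1 to 8 gives 1168 against 15 within 9 to 16.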

How the data were processed

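The authors mapped read pairs to GRCm39 (STAR, annotation gencode vM32, extended by human App sequences) and deposited raw counts per gene, with 1 column per library. Which strand column of STAR was used is not given in the sources used here. Ribosomal RNA and mitochondrial genes stayed in the table. Here, genes that reached 5 counts in 4 or more m libraries were normalized by TMM and tested with edgeR 4.0.16 in R 4.3.3 (glmQLFit and glmQLFTest, genotype as the only term, Benjamini-Hochberg adjustment), with the thresholds of the study. The SE was obtained from the log2 fold change and the F statistic. Each library counts as 1 replicate. Whether each is a separate animal is not given in the labels, so p-values measure the spread between libraries, which may be technical in part. The f libraries were fitted alone, and the difference between the sexes came from 4 groups over 16 libraries. Library totals were compared by exact permutation over 70 splits, the smallest p being 0.0286. The procedure was tested on simulated data.

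Named genes were the called genes, App, Xist, Ddx3y, the members of 37 lists that were called or had the most counts, and the genes called between the sexes. Others are marked as chosen after their values were seen, which also holds for list members picked by an unadjusted p. The members and lists were chosen with earlier results of these data known. Alternatives were other normalizations, filters, thresholds, DESeq2 1.42.0, limma 3.58.1 voom, a robust fit, 16 libraries, a replicate block, the range of library numbers and leaving out each library. Chosen after seeing the data were the difference between ranges, the lists without KI replicate 3 and a fit of protein-coding genes. Positions came from gencode vM39 on GRCm39, which matched 97.8% of tested genes. No 2 of the m libraries held identical counts, and same-numbered replicates did not deviate together (correlations -0.322 to 0.0231), so they were not paired. Some items are not reported here.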

Additional observations from a re-analysis of the deposited data

Results flagged for a closer look

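Within groups of 4, the gap of the most distant library to its nearest neighbour, divided by the range of the group, exceeded Dixon's 95% critical value in 20 of 270 groups of values, where chance gives about 1 in 20. Among WT libraries, replicate 2 was the lowest for the neuron sum (0.839), the interneuron sum (0.83), Meis2 (0.921), a transcription factor of bulb interneurons, and Gm10138 (0.834). WT replicate 4 was the lowest for the mitochondrial sum (0.909) and mt-Rnr2 (0.838) and the highest for the p53 sum (0.888). WT replicate 1 was the highest for S100a9 (0.848), a neutrophil gene, and for Hba-a1 (0.892), a hemoglobin gene at 0.959 CPM.

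Among KI libraries, replicate 3 was the lowest for the neuroblast sum (0.862) and Ncam1 (0.832), a neural adhesion molecule, and the highest for the mitochondrial sum (0.85), mt-Rnr1 (0.835), C1qa (0.832) and Csnk1e (0.846). KI replicate 2 was the highest for Cspg4 (0.839) and Cd4 (0.845) and the lowest for Reln (0.839). KI replicate 1 was the lowest for Rgs5 (0.95), a pericyte gene, at 12.98 CPM against 17.6 to 17.8 in the others. KI replicate 4 was the lowest for Xist (0.964), with 0 counts against 1 in each of the others.

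The genotype effect differed between the sexes, by the interaction term over 16 libraries, for Cavin2 (3.09), Alpl (3.17), Abcb1a (2.58), Nr1d1 (1.06) and Cavin1 (1.96), each log2 value being m minus f.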

How the results depend on the processing

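Against 4 calls (3 higher, 1 lower), RLE and upper quartile normalization gave 11 each (6 and 5), a robust fit 11 (5 and 6), all 16 libraries 46 (16 and 30), DESeq2 240 (71 and 169), no filter 666 (314 and 352) and the range of library numbers as a term 100 (16 and 84). Within numbers 1 to 8 there were 1168 (469 and 699) and within 9 to 16 there were 15 (13 and 2). Leaving out 1 library gave 3 to 225 calls, 2 to 139 higher and 1 to 86 lower, the most without KI replicate 3. Protein-coding genes alone gave 2, since the other 2 calls are not of that class. The causes of the other changes were not tested. Mid1 and Dop1b were called in all 25 other settings, Cdr1os in all but the fit of protein-coding genes, which leaves it out, and G530011O06Rik in 21. A fit with a replicate block gave 5 calls (3 and 2) and lost G530011O06Rik, and with the block 3 genes differed between the sexes. That test gave 5 genes by itself, 81 with DESeq2, 4 with RLE, and 1 to 43 with 1 library left out (43 without WT f replicate 4, 38 without WT f replicate 3, and 1 without WT m replicate 2, KI f replicate 1 or KI m replicate 4). The share of higher calls, 75.0% of 4, fell to 34.8% with 16 libraries, 29.6% with DESeq2, 16 of 100 with the range as a term, 40.2% within numbers 1 to 8 and 30.0% without KI replicate 4. Of 198 list medians recomputed, 190 moved by less than the spread between libraries and 8 by more, all 8 within a range of library numbers. Depth limits genes such as Mid1-ps1, at 0 to 2 counts in WT.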
